A study of Lachancea kluyveri with 16 samples.

Results

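SDH1 (SAKL0G11440g), SDH3 (SAKL0E04136g) and FUM1 (SAKL0E00946g) are the Lachancea kluyveri genes named after the baker's yeast orthologs for a catalytic and a membrane subunit of succinate dehydrogenase and for fumarase. They were selected by gene identifier, as the genes whose array probes carry these IDs. No measured value entered that rule, but the genes were chosen with earlier results of these data known. They are 3 of the 5316 genes on the array and hold 6 of its 10620 gene probes, 2 for each gene. All 3 were among the 4255 genes bright enough to be tested, and every one of their spots was well above background on all 16 arrays.

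Succinate dehydrogenase, or complex II, is the only enzyme shared by the TCA cycle and the respiratory chain. It oxidizes succinate to fumarate on its flavoprotein subunit, Sdh1, and passes the electrons through the iron-sulfur subunit Sdh2 to ubiquinone at a membrane anchor made of Sdh3 and Sdh4. Fumarase, Fum1, then adds water to fumarate to give malate, and in baker's yeast the product of its single gene is found in both mitochondria and the cytosol. In baker's yeast SDH1 and SDH3 each have a duplicate from the whole-genome duplication, whereas the orthology table given with the study pairs both copies with 1 L. kluyveri gene in either case.

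L. kluyveri wild-type (WT) cells of strain JYL1897 (MATa ura3) and sef1Δ cells (MATa ura3 sef1Δ::KanMX6, made from JYL1897) were grown overnight on glucose in YPD and diluted to 0.2 OD600 per ml in YPD or in the glycerol medium YPGly. RNA was taken 5.5 h later, so in YPGly steady growth and the change of medium cannot be told apart. SEF1 encodes a zinc cluster transcription factor, and the study asked how far its loss alters the expression of the TCA cycle genes. Each of the 4 groups had 4 arrays, labelled as biological repeats, and sef1Δ was 1 deletion strain.

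SEF1 itself was lower on every sef1Δ array than on every WT array, at least 28.9-fold in YPD and, by its other probe, at least 50.8-fold in YPGly (exact two-sided permutation test, p = 0.0286, the smallest that 4 against 4 arrays can give). These are lower bounds, since none of the sef1Δ arrays of the medium concerned showed those probes well above background. The 75th percentile of the signal ranged from 718 to 2410 between arrays, and 90.5% to 98.7% of gene probes were well above background. The 2 slides each held 2 arrays of every group, replicates 1 and 2 on one and replicates 3 and 4 on the other. Each group kept 1 array column on both slides, so array column and group cannot be told apart.

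All levels below are log2 of the processed signal relative to the 75th percentile of the same array, for the brighter of the 2 probes of a gene unless stated, and a change of 1 is a doubling. The level of one gene was not set against that of another, since probes differ in brightness for the same amount of RNA. In WT cells in YPD, SDH1 was 2.92, 3.37, 3.01 and 3.32 on replicates 1 to 4 (3.15 ± 0.22, SD, n = 4). In sef1Δ cells in YPD it was 2.25, 2.96, 2.15 and 2.84 (2.55 ± 0.41, n = 4). Replicates 2 and 4 were the higher arrays of both strains in this medium, and the 2 groups overlapped only through replicate 1 of WT and replicate 2 of sef1Δ. In YPGly, WT cells gave 3.32, 3.60, 3.52 and 4.44 (3.72 ± 0.49, n = 4) and sef1Δ cells 3.36, 3.68, 3.37 and 3.43 (3.46 ± 0.15, n = 4). Replicate 4 of WT lay above the other 7 arrays of that medium. The order of the group means was sef1Δ in YPD, WT in YPD, sef1Δ in YPGly and WT in YPGly, and each neighbouring pair in that order overlapped.

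SDH3, a membrane anchor subunit, was 2.37, 2.33, 2.69 and 3.02 on the 4 WT arrays in YPD (2.60 ± 0.32, n = 4). In sef1Δ cells in YPD it was 2.21, 1.83, 1.57 and 2.23 (1.96 ± 0.32, n = 4). Here all 4 sef1Δ arrays lay below all 4 WT arrays. In YPGly SDH3 was 2.25, 2.81, 3.03 and 3.77 in WT (2.96 ± 0.63, n = 4) and 2.33, 2.31, 2.50 and 2.46 in sef1Δ cells (2.40 ± 0.10, n = 4). The WT arrays in YPGly thus held both the lowest and the highest value of that medium, and the sef1Δ arrays lay close together between them. From low to high the group means ran sef1Δ in YPD, sef1Δ in YPGly, WT in YPD and WT in YPGly, and in that order only the first step separated groups that did not overlap.

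FUM1 was 1.15, 1.31, 1.52 and 1.26 in WT in YPD (1.31 ± 0.16, n = 4). In sef1Δ cells in YPD it was 0.99, 1.34, 1.26 and 0.98 (1.14 ± 0.19, n = 4). These 2 groups overlapped. In YPGly it was 2.15, 2.21, 2.50 and 3.35 in WT (2.55 ± 0.55, n = 4) and 2.34, 1.87, 2.31 and 2.20 in sef1Δ cells (2.18 ± 0.21, n = 4). Every array in YPGly was above every array in YPD whatever the strain, and the 2 strains overlapped within each medium.

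**Figure D1:**
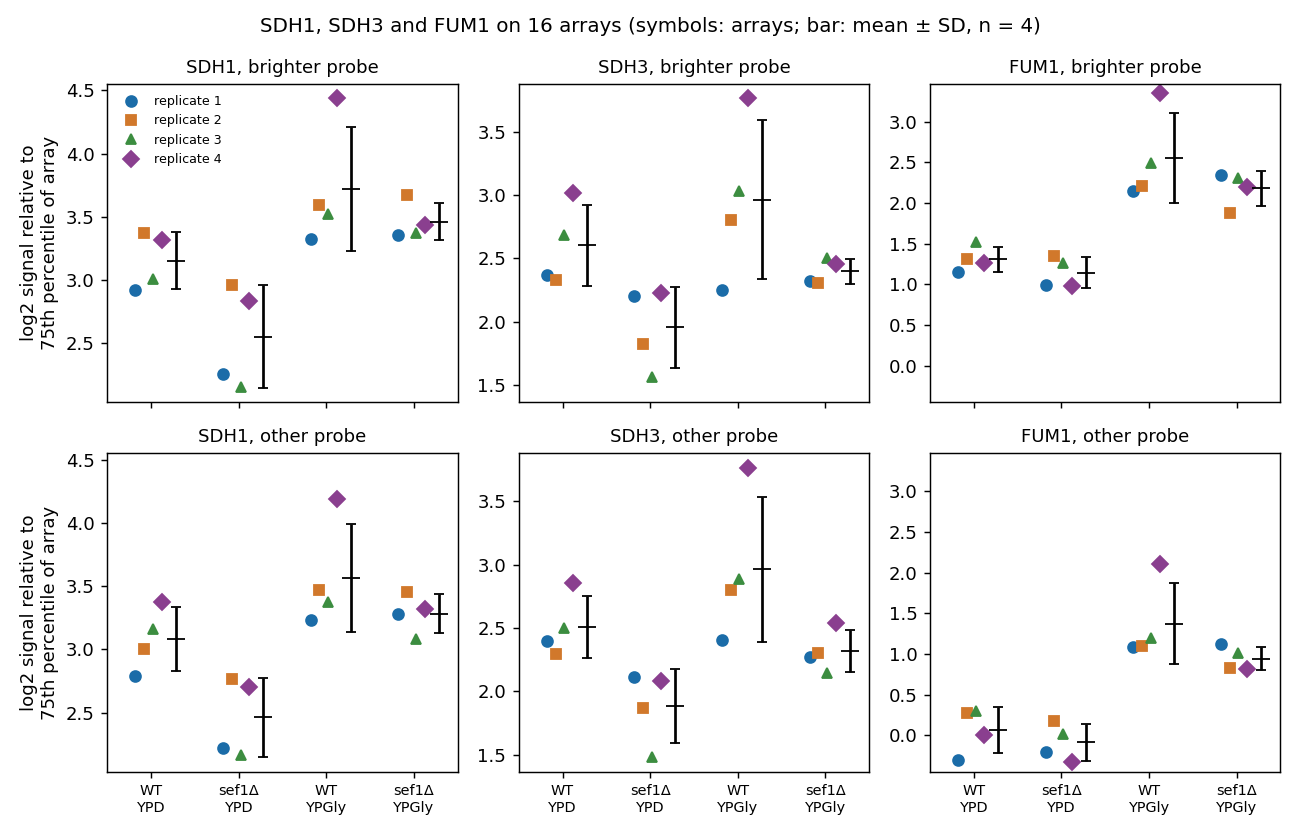
Levels of SDH1, SDH3 and FUM1 by group, with the brighter probe in the upper row and the other probe in the lower, as log2 signal relative to the 75th percentile of the array (symbols are arrays by replicate number, bars the mean ± SD, n = 4). Replicate 4 of WT in YPGly is the highest array of its group for every probe, at 4.44, 3.77 and 3.35 for the brighter probes of SDH1, SDH3 and FUM1.

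The second probe of each gene gave almost the same picture. Its group means were 3.08 (WT, YPD), 2.46 (sef1Δ, YPD), 3.57 (WT, YPGly) and 3.28 (sef1Δ, YPGly) for SDH1. For SDH3 they were 2.51, 1.89, 2.96 and 2.31 in the same order of groups. Those of FUM1 were 0.06, -0.09, 1.37 and 0.94. Over the 4 two-group comparisons the changes by the 2 probes of a gene differed by at most 0.09 for each of the 3 genes, and the calls described next were the same with either probe.

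The first question was how the 3 genes responded to glycerol in each strain. A change was called where it reached 1.5-fold and limma's p, adjusted over all 4255 genes by the Benjamini-Hochberg method, was 0.05 or lower. In WT cells, FUM1 was called higher in YPGly by 1.24 (2.37-fold, SE 0.25, 95% interval 0.68 to 1.80, adjusted p = 0.00251), and its groups did not overlap. SDH1 was higher by 0.57 (SE 0.24, 95% interval 0.03 to 1.104, adjusted p = 0.0752) and SDH3 by 0.36 (SE 0.30, -0.29 to 1.02, adjusted p = 0.337), and neither was called. Thus 1 of the 3 genes was called higher, where 17.5% of all genes tested were called higher and 18.5% had YPGly arrays wholly above the YPD arrays. The change of FUM1 exceeded that of 92.3% of all genes, that of SDH1 80.7% and that of SDH3 74.8%. The median change over all genes with this scaling was -0.14 in WT and -0.11 in sef1Δ cells, slightly lower in YPGly, and its cause was not tested.

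The calls of the subunit genes in WT turned on single arrays and on the scaling. Without replicate 1 of WT in YPGly, SDH1 was called, at 0.70 (adjusted p = 0.0481, against a range of 0.00318 to 0.180 over its 26 alternatives). Without replicate 4 of the same group, the change of SDH1 was 0.33 and that of SDH3 0.09, whereas FUM1 was still called at 0.98 (adjusted p = 0.00135, range 2.23e-06 to 0.0173). SDH1 was also called with quantile normalization, at 0.92 (adjusted p = 0.00524). Scaled to the positive control spots, SDH1 was higher by 1.27 (adjusted p = 0.00318), SDH3 by 1.06 (adjusted p = 0.0157, range 0.0157 to 0.771) and FUM1 by 1.94, so all 3 genes were called. That scaling raised the median of all genes in this comparison from -0.14 to 0.56, and relative to that median the 3 changes were 0.71, 0.50 and 1.38. The sources used here do not say whether spike-in RNA was added to the samples.

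In sef1Δ cells, FUM1 rose in YPGly by 1.04 (2.05-fold, SE 0.17, 95% interval 0.66 to 1.42, adjusted p = 8.64e-04). SDH1 rose by 0.91 (1.88-fold, SE 0.21, 95% interval 0.44 to 1.38, adjusted p = 0.00627). SDH3 was higher by 0.44 (SE 0.18, 95% interval 0.03 to 0.85, adjusted p = 0.0752) and was not called, although its YPGly arrays also lay wholly above its YPD arrays. Of the 3 genes, 2 were called higher and all 3 did not overlap, against 18.1% and 18.4% of all genes tested. Both calls held when any 1 of the 8 arrays was left out. SDH1 missed a 2-fold threshold, and SDH3 was called at 0.79 with the scaling to positive controls (adjusted p = 0.0428, range 0.00892 to 0.202 over its alternatives).

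**Figure D2:**
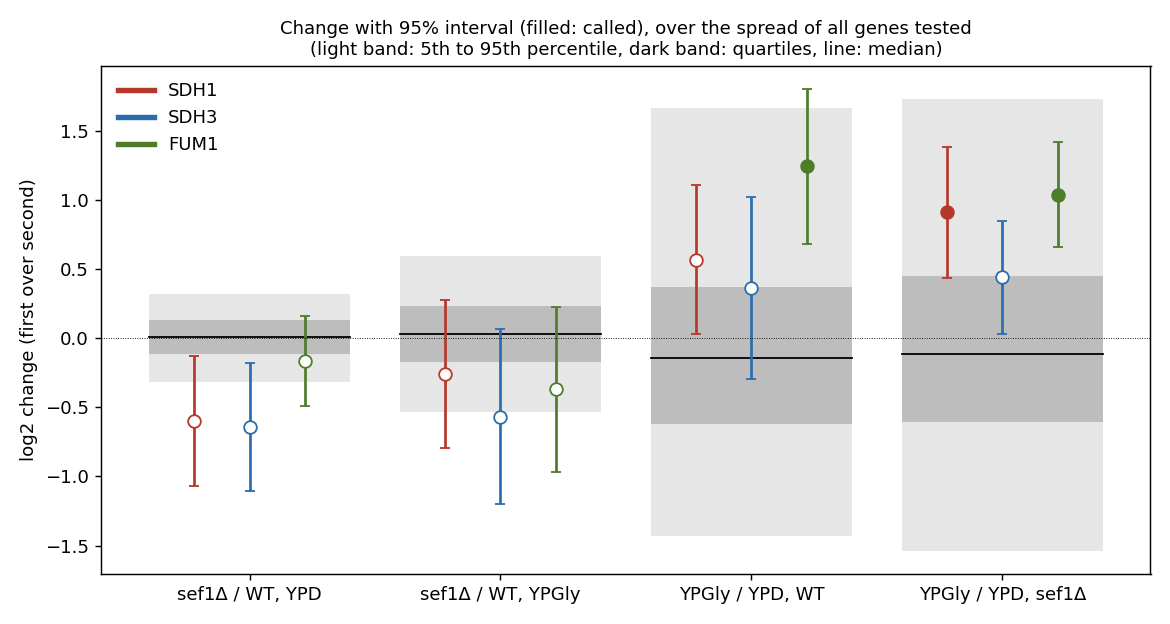
Log2 change of SDH1, SDH3 and FUM1 in the 4 two-group comparisons, with limma's 95% interval (filled circles were called), over the spread of all 4255 genes (light band, 5th to 95th percentile; dark band, quartiles; line, median). The medium changes of FUM1, 1.24 and 1.04, lie within the wide band of all genes, while the YPD strain changes of SDH1 and SDH3, -0.60 and -0.64, lie below a much narrower band that starts at -0.32.

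The second question was what the loss of SEF1 did in each medium. In YPD, SDH3 was 1.56-fold lower in sef1Δ cells, a log2 change of -0.64 (SE 0.21, 95% interval -1.11 to -0.18). SDH1 was 1.52-fold lower, at -0.60 (SE 0.21, 95% interval -1.07 to -0.13), and FUM1 differed by -0.17 (SE 0.15, 95% interval -0.49 to 0.16). After adjustment none of the 3 was called (adjusted p = 0.999 for each in limma), where 0.0705% of all genes, 3 of 4255, were called lower. Before adjustment SDH1 and SDH3, but not FUM1, were among the 1.79% of genes that were lower at p under 0.05 in limma. The methods' t-test, with no correction and the same 1.5-fold limit, called SDH1 and SDH3 lower, and FUM1 not, where it called 0.376% of all genes lower. Scaled to the positive control spots the changes were -0.22 for SDH1, -0.27 for SDH3 and 0.21 for FUM1, while the median of all genes moved from 0.01 to 0.39, so relative to that median they were -0.61, -0.65 and -0.18.

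For size alone, the YPD changes of SDH1 and SDH3 stood near the low end of all genes, with 0.635% and 0.564% of the genes tested below them, against 16.9% for FUM1. Only SDH3 had groups that did not overlap, as did 1.32% of all genes in that direction. In pairs of the same replicate number the strains differed in SDH1 by -0.66, -0.41, -0.85 and -0.48. The pairs of SDH3 differed by -0.17, -0.50, -1.12 and -0.79, and for both genes all 4 pairs were lower, as they were for 8.51% of all genes. Same-numbered arrays of the 2 strains varied together, and with the replicate number as a block the SE fell to 0.12 for SDH1 (adjusted p = 0.475) and 0.16 for SDH3 (adjusted p = 0.560), still without a call. Within slide 1 the changes of SDH1, SDH3 and FUM1 were -0.54, -0.33 and -0.06, and within slide 2 they were -0.67, -0.95 and -0.27 (2 arrays a group, no test).

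In YPGly all 3 genes were again lower on average in sef1Δ cells, and none was called. SDH3 differed by -0.57 (SE 0.28, 95% interval -1.20 to 0.06, adjusted p = 0.452), FUM1 by -0.37 (SE 0.27, -0.97 to 0.23, adjusted p = 0.626) and SDH1 by -0.26 (SE 0.24, -0.80 to 0.28, adjusted p = 0.718). In this comparison 0.494% of all genes were called lower, and none of the 3 genes had strains that did not overlap or an unadjusted p under 0.05, as against 3.5% and 4.58% of all genes in that direction. The WT replicate 4 array carried much of each difference: without it SDH3 differed by -0.30, FUM1 by -0.11 and SDH1 by -0.02. On slide 1, which did not hold that array, the changes were -0.21 for SDH3, -0.07 for FUM1 and 0.06 for SDH1, whereas on slide 2 they were -0.92, -0.67 and -0.58. The methods' t-test called none of the 3 either, and neither did limma with the replicate block, although that fit raised the share of all genes called lower to 2.12%.

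Replicate 4 of WT in YPGly was the highest array of its group for SDH1, SDH3 and FUM1, by 0.72, 0.80 and 0.80 above the group mean. Over all genes tested with a value on each of those arrays, 28.3% had that array as their highest of the group. It was the highest for 3 of the 5 complex II partner genes (SDH2, SDH4 and SDH5, but not ACN9 or SDH8), for 7 of 8 genes of neighbouring steps, for 10 of 11 other TCA cycle genes and for 15 of 18 respiratory chain genes. Its share of probes well above background, 97.9%, and its 75th percentile of 1239 were inside the range of the other arrays, whereas the median of its log2 values in the authors' scaled table, -1.43, was the lowest of the 16 arrays, whose medians reached -1.17. Its part in the results of these genes is given by the values without it.

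Whether the loss of SEF1 mattered more in one medium was tested directly over all 16 arrays, by subtracting the strain difference in YPD from the one in YPGly. This difference was 0.34 for SDH1 (SE 0.33, 95% interval -0.36 to 1.04, adjusted p = 0.817). It was 0.08 for SDH3 (SE 0.37, 95% interval -0.70 to 0.85, adjusted p = 0.973) and -0.21 for FUM1 (SE 0.31, 95% interval -0.86 to 0.45, adjusted p = 0.900). None of the 3 was called, as against 0.259% of all genes called lower and 0.4% called higher, and none had an unadjusted p under 0.05, as 3.43% of all genes had with a lower and 6.13% with a higher value. The intervals leave room for a difference of about a doubling for SDH1 in one direction and for FUM1 nearly as much in the other.

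Differences taken within an array are free of the scaling between arrays, and they were used to ask whether the genes moved by unequal amounts. From YPD to YPGly in WT, the difference SDH1 minus FUM1 went from 1.84 ± 0.27 to 1.17 ± 0.16 (SD, n = 4 each), a change of -0.68 on the log2 scale. SDH3 minus FUM1 went from 1.29 ± 0.32 to 0.41 ± 0.22, a change of -0.88. In both cases the 2 media did not overlap (exact two-sided permutation test, p = 0.0286 each, the smallest that 4 against 4 arrays allow). Adjusted over the 12 tests of this kind both became 0.171, and none of the 12 passed. Both p-values were already the smallest possible, so neither pair could pass unless several other tests also reached that value. The adjusted values therefore cannot decide whether the genes moved by unequal amounts in WT.

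In sef1Δ cells SDH3 minus FUM1 changed by -0.60 from YPD to YPGly (exact permutation p = 0.0571, adjusted p = 0.229). SDH1 minus FUM1 changed by -0.13 (exact p = 0.686, adjusted p = 0.779), and SDH1 minus SDH3 by 0.47 (exact p = 0.114, adjusted p = 0.286). For the strain comparisons, in YPD SDH1 minus FUM1 differed by -0.44 and SDH3 minus FUM1 by -0.48 (exact p = 0.143 and 0.257, adjusted 0.286 and 0.386). SDH1 minus SDH3 differed by only 0.04 between the strains in YPD (exact p = 0.857).

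**Figure D3:**
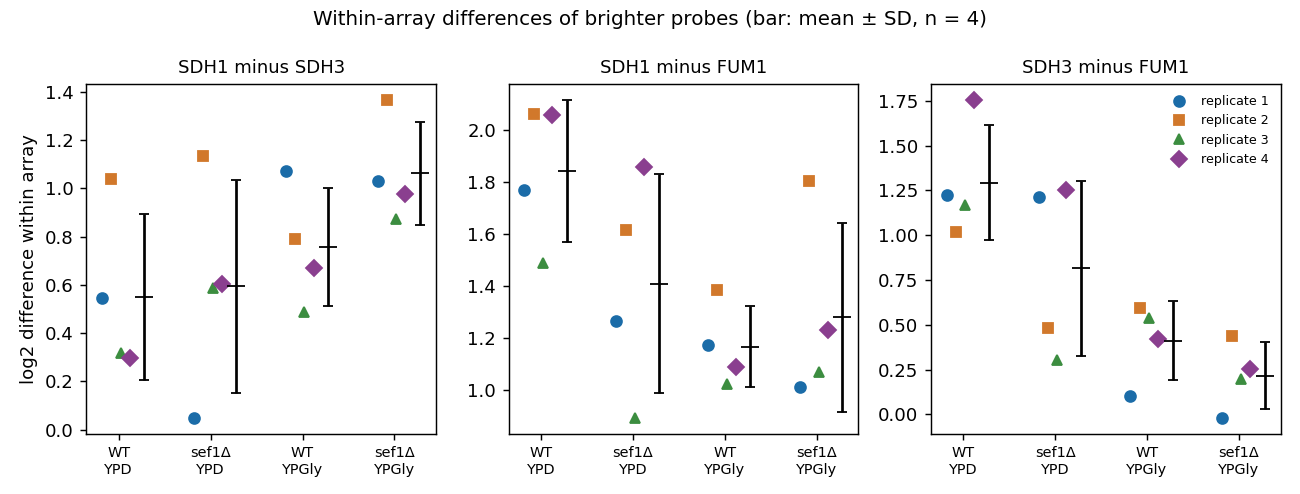
Difference in log2 signal between the brighter probes of 2 genes on the same array, by group (symbols are arrays by replicate number, bars the mean ± SD, n = 4). The height of a group reflects the brightness of the probes, and only its shift between groups is read: SDH3 minus FUM1 falls from 1.29 to 0.41 between the WT groups in YPD and YPGly, which do not overlap.

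The other genes of complex II were looked at as a list of partners: the subunits SDH2 and SDH4 and the assembly factors SDH5, ACN9, SDH8 and TCM62. In WT cells SDH2, the iron-sulfur subunit, was 1.33, 1.74, 1.47 and 1.96 in YPD and 2.87, 2.93, 2.90 and 3.84 in YPGly. All YPGly arrays were thus above all YPD arrays, and SDH2 rose by 1.51 (SE 0.24, adjusted p = 6.38e-04). SDH4, the other membrane anchor subunit, was 1.51, 1.67, 1.36 and 2.14 in YPD and 2.19, 2.62, 2.48 and 3.51 in YPGly, and rose by 1.03 (SE 0.28, adjusted p = 0.0122). In sef1Δ cells SDH2 rose from 1.22 ± 0.42 to 2.98 ± 0.15 (change 1.76, adjusted p = 1.50e-04) and SDH4 from 1.35 ± 0.67 to 2.88 ± 0.20 (change 1.53, adjusted p = 0.00250). Taken as a complex of 4 subunits, 2 of 4 were called higher in YPGly in WT (SDH2 and SDH4) and 3 of 4 in sef1Δ cells (these and SDH1), against 17.5% and 18.1% of all genes. The medians of the 4 were 0.80 and 1.22 against -0.14 and -0.11 over all genes.

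Among the assembly factors, ACN9, which in baker's yeast helps mature the iron-sulfur subunit, rose in YPGly by 1.65 in WT (SE 0.28, adjusted p = 8.38e-04) and by 1.28 in sef1Δ cells (SE 0.34, adjusted p = 0.0111). SDH5, which in baker's yeast is needed to attach the flavin to Sdh1, was higher by 0.56 and 0.49 (adjusted p = 0.0286 and 0.0193), short of 1.5-fold in either strain. Its other probe gave 0.68 in WT (adjusted p = 0.0375), which was called, and 0.29 in sef1Δ cells (adjusted p = 0.138), which was not. SDH8, an assembly factor that binds Sdh1 in baker's yeast, was higher by 0.55 in WT (adjusted p = 0.0780) and rose by 0.73 in sef1Δ cells (adjusted p = 0.0301). TCM62 was too dim for the test, with group means between -2.47 and -2.23 on the same log2 scale. With the brighter probes, 3 of the 5 partners tested were called higher in WT and 4 of 5 in sef1Δ cells, against 17.5% and 18.1% of all genes. The other probes, counted after seeing the data, gave the opposite order, with 4 called in WT (SDH5 added) and 3 in sef1Δ cells, where SDH8 was at 0.57 (adjusted p = 0.0885).

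Loss of SEF1 left the partners without a call in either medium. Few genes were called at all, 0.0705% lower in YPD, and 0.494% lower and 0.729% higher in YPGly. In YPD SDH2 differed by -0.40 (SE 0.23) and SDH4 by -0.32 (SE 0.31), and together with SDH1 and SDH3 all 4 subunit genes were below 0, with a median of -0.50 against 0.01 over all genes. The assembly factors SDH5, ACN9 and SDH8 differed by 0.01, 0.26 and 0.29. In YPGly SDH2 differed by -0.15, SDH4 by 0.18, SDH5 by -0.06, ACN9 by -0.11 and SDH8 by 0.47. All adjusted p-values of the partners were 0.999 in YPD and at least 0.476 in YPGly. The comparisons in YPD and from YPD to YPGly in WT share the WT arrays in YPD, and those within a medium and within a strain share arrays likewise.

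The genes of the neighbouring steps and carriers were compared in the same way. LSC1 and LSC2, which encode succinyl-CoA ligase, the enzyme that supplies succinate, rose in YPGly by 0.90 and 1.82 in WT (adjusted p = 0.00709 and 4.34e-05) and by 1.14 and 2.25 in sef1Δ cells (adjusted p = 0.00880 and 1.47e-04). Of the malate dehydrogenases that follow fumarase, MDH2 (cytosolic in baker's yeast) rose by 1.30 and 0.80 and MDH3 (peroxisomal) by 2.58 and 3.15 in WT and sef1Δ cells. The mitochondrial MDH1 did not pass in either strain, at 0.14 and -0.28 (adjusted p = 0.635 and 0.407). SFC1, the mitochondrial carrier that exchanges succinate for fumarate in baker's yeast, had fitted rises of 7.20 and 7.38, but its probe was well above background on only 1 of 4 WT arrays and 2 of 4 sef1Δ arrays in YPD. DIC1, a dicarboxylate carrier, was at 0.39 and 0.49 and FRD1, a fumarate reductase, at -0.27 and -0.49, none of them called. Of these 8 genes 5, SFC1 among them, were called higher in YPGly in each strain, against 17.5% of all genes in WT and 18.1% in sef1Δ cells. None was called lower, against 24.3% and 22.4%.

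Between the strains none of these 8 genes was called in either medium, against 0.0705% of all genes called lower in YPD, and 0.494% lower and 0.729% higher in YPGly. In YPD, leaving out SFC1 for its dim probe (a choice made after seeing the data), the changes of the other 7 ran from -0.36 for DIC1 to 0.21 for LSC1, with a median of -0.03. In YPGly those of the same 7 ran from -0.55 for MDH2 to 0.69 for MDH3, with a median of -0.26. With SFC1 included, the medians of all 8 were 0.05 in YPD and 0.10 in YPGly, so the sign of either median turned on that gene. LSC2 was the only one whose strains did not overlap, higher in sef1Δ cells in YPGly by 0.63 (SE 0.19, adjusted p = 0.163), where 6.04% of all genes had strains apart in that direction.

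**Figure D4:**
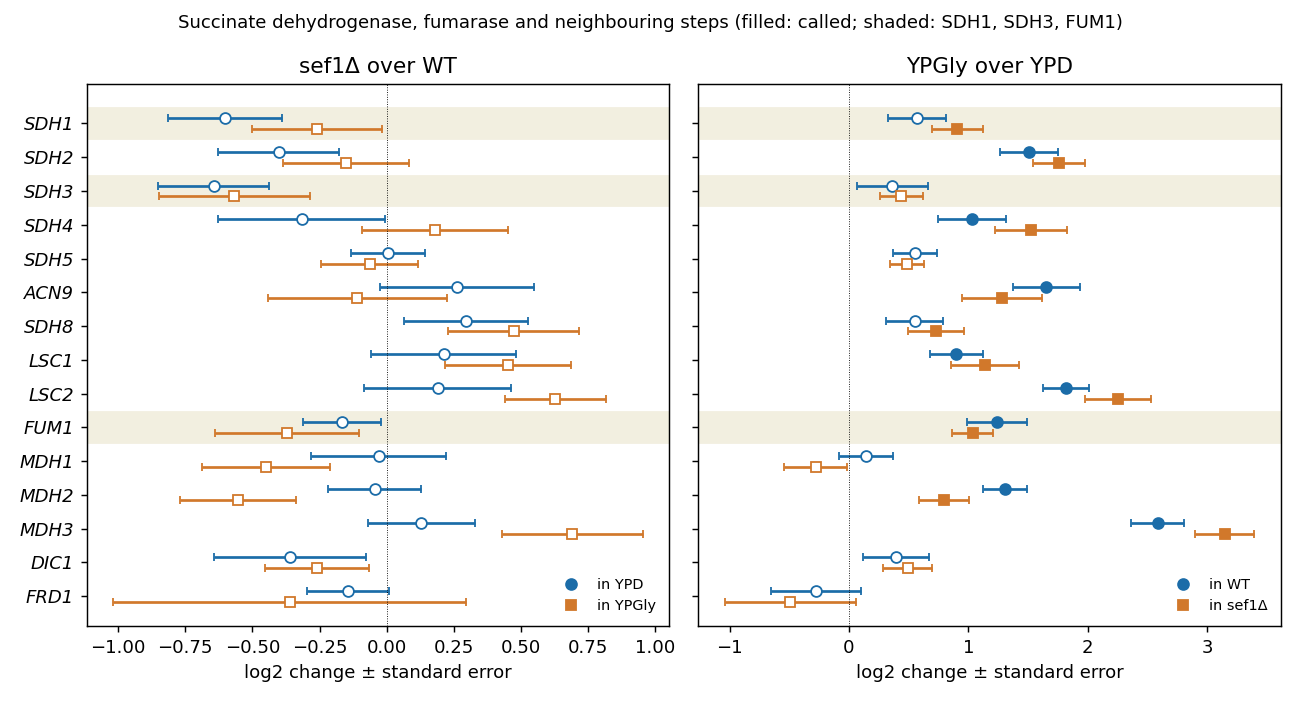
Log2 change ± standard error of the complex II, fumarase and neighbouring genes, for sef1Δ over WT (left) and YPGly over YPD (right), with filled symbols for calls and the 3 selected genes shaded. On the left no gene is called, and SDH3 in YPD lies lowest at -0.64, and on the right MDH3 lies highest at 2.58 and 3.15 (SFC1 and TCM62 are not drawn).

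The genes whose level followed each of the 3 most closely over the 16 arrays were listed by Pearson correlation of the normalized log2 signal, as a description of these arrays, which share media, slides and scaling. For SDH1 the closest of 4238 genes was its partner subunit gene SDH2 (r = 0.91). Next came the aconitase gene ACO1 (r = 0.91) and YAT1, a carnitine acetyltransferase (r = 0.89). SDH3 was closest to DIC1 (r = 0.83), followed by ACO1 (r = 0.82), YMR31 (r = 0.82), FMP41 (r = 0.79) and YJL206C (r = 0.78). FUM1 was closest to AIM34 (r = 0.95), EHD3 (r = 0.95) and, at the fifth place, ICL2 (r = 0.94). The other 4 genes in these lists have no symbol in the tables used here.

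Among themselves, SDH1 and SDH3 correlated at r = 0.78 over the 16 arrays, SDH1 and FUM1 at 0.82 and SDH3 and FUM1 at 0.65. After each group's mean was removed the values were 0.62, 0.55 and 0.59. Replicate 4 of WT in YPGly contributed the highest deviation for each gene. A recalculation without that array, over the remaining 15, was added after seeing the data. With group means removed the values were then 0.27, -0.07 and 0.06 in the same order. With group means kept they were 0.63, 0.71 and 0.40.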

How the data were processed

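RNA of 16 cultures was labelled with 1 Alexa dye and hybridized to a custom Agilent array. The authors quantified the scans in Feature Extraction 10.5.1.1. They deposited a processed intensity for every spot, corrected for background and spatial trend, along with median and background intensities and spot flags. The deposited series matrix holds log2 values that the authors scaled to the 75th percentile of each array. On each array they were offset from the values computed here by a constant of at most 0.00787, and served as an alternative. Whether spike-in RNA was added is not given in the sources used here.

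The processed signal was scaled to the 75th percentile over gene probes and taken to log2. The probe brighter on average over the 16 arrays stood for a gene. For SDH3 this was not the probe of the study's list, which was held in part, and the other probe was an alternative. Genes were required to reach a signal of 200 on all arrays of 1 group or more, and were tested with limma 3.58.1 in R 4.3.3 (lmFit, eBayes, 8 arrays a comparison, 16 for the strain by medium difference), with Benjamini-Hochberg adjustment over 4255 genes. None of the 32 spots marked as non-uniform outliers, which were left out, belonged to the 3 genes. On data simulated for the YPD strain comparison, 100 genes were changed by 1 and 100 by 2 on the log2 scale, with independent noise. Of these 77% and 98% were recovered. So many changed genes make the adjustment easier to pass than in the data, where 3 genes were called lower. Changes as small as those of SDH1, SDH3 and FUM1 in YPD were not simulated, so the recovery does not apply to them. No spot was saturated. With 4 arrays a group, the number of arrays limits precision.

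The 3 genes, the lists and the tests were chosen with earlier results of these data known. The genes named are the 3 with both probes, all partner and neighbouring-step genes, up to 4 called genes for each other list and comparison, and the 5 genes most like each of the 3. Gene names are those of baker's yeast orthologs given with the study. No genome or annotation was used, and sequences and positions are not shown. Same-numbered arrays of the 2 strains deviated together from their group means (correlations of 0.37 to 0.71 in YPD and 0.21 to 0.70 in YPGly). Arrays of unlike number reached 0.11 in YPD and 0.32 in YPGly. The main tests took all arrays as unpaired, and the numbers served as pairs in the pair differences and in alternatives such as the replicate block. The replicate numbers also follow the slides. Alternatives were another scaling, background correction, probe, filter, test, block, fold threshold or array left out.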

Additional observations from a re-analysis of the deposited data

Results flagged for a closer look

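For FUM1, the other probe on replicate 4 of WT in YPGly was 2.11, far from the other 3 arrays of its group, at 1.09 to 1.20. It stood apart by a test for a single distant value among 4, which was applied to 24 groups of a gene, probe, strain and medium and picked out 1. Chance alone picks out about 1 in 20 such groups. The brighter probe of FUM1 on the same array was 3.35, against 2.15 to 2.50 on the other 3 arrays.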

How the results depend on the processing

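Changes of SDH1, SDH3 and FUM1 kept their direction and their side of the threshold in 387 of 405 recalculations under 34 settings, and the cause of the exceptions was not tested. This count does not measure size, and most of the changes were not called to begin with. Between strains in YPGly SDH1 kept both in all 26 of its recalculations, while its change ranged from -0.39 to -0.02. In the YPD strain comparison the methods' t-test without correction called SDH1 at -0.60 and SDH3 at -0.64, so 2 genes in place of 0, and after its adjustment none, and with scaling to the positive controls FUM1 was at 0.21, SDH1 at -0.22 and SDH3 at -0.27, with the median of all genes at 0.39 in place of 0.01. From YPD to YPGly in WT, SDH1 was called with quantile normalization (0.92) and with positive control scaling (1.27), SDH3 with the latter (1.06), so 2 and 3 genes were called in place of 1. With single arrays left out SDH1 ranged from 0.33 to 0.70 and the number called from 1 to 2. In sef1Δ cells SDH1 at 0.91 was not called at 2-fold, which left 1 gene, and SDH3 was called with positive control scaling (0.79). The strain by medium difference, never called, changed sign for SDH1 with positive control scaling (-0.0046). That of SDH3 was -0.023 with the dimmer probe, -0.042 with normexp background correction, -0.12 with quantile normalization and -0.27 with positive control scaling, and ranged from -0.16 to 0.35 with single arrays left out, while FUM1 ranged from -0.34 to 0.061. Of the differences within arrays, SDH1 minus SDH3 between strains in YPD was -0.0030 with normexp and ranged from -0.14 to 0.22 with single arrays left out. SDH1 minus FUM1 ranged from -0.063 to 0.20 between strains in YPGly and from -0.30 to 0.021 between media in sef1Δ cells.

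The replicate block changed no call of the 3 genes. In the medium comparisons same-numbered arrays did not all correlate above 0.1 (-0.0002 to 0.37 in WT, 0.09 to 0.40 in sef1Δ cells), and the block gave SDH1 in WT an adjusted p of 0.0332 at 0.57, short of 1.5-fold. Over all genes the block raised the number called in the YPGly strain comparison from 21 to 90 lower and from 31 to 134 higher, and that in the strain by medium difference from 11 to 17 lower and from 17 to 40 higher. The methods' t-test was not run on the strain by medium difference. Signal did not limit the 3 genes, whose dimmest spot was 658.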

Other observations

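The remaining 11 TCA cycle genes and 18 other respiratory chain genes were described as lists chosen with earlier results known. From YPD to YPGly, 6 of the 11 TCA genes were called higher in WT, against 17.5% of all genes, with a median of 0.63 against -0.14 over all genes. The citrate synthase gene CIT3 was at least 691-fold higher in WT, a lower bound since its probe was not well above background in YPD. The peroxisomal isocitrate dehydrogenase gene IDP3 rose by 6.36, KGD2 of ketoglutarate dehydrogenase by 1.37 and CIT1 by 1.14. In sef1Δ cells 7 were called higher, against 18.1% of all genes, among them IDP3 by 7.36, ACO1 by 1.42 and CIT1 by 0.95, and IDH2, a subunit of the NAD-dependent isocitrate dehydrogenase, fell by 0.62. CIT3 was also called there, with a fitted change of 9.05 and a probe well above background on 2 of 4 arrays in YPD. Between strains the calls in this list were IDH1 and IDH2, with changes of -1.77 and -1.47 in YPD and of -2.66 and -2.37 in YPGly, and none of the 11 was called higher. Of all genes 0.0705% were called lower in YPD, and 0.494% lower and 0.729% higher in YPGly. The median strain change of the 11 was -0.28 in YPD and -0.69 in YPGly, against 0.01 and 0.03 over all genes.

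Of the respiratory chain genes, 12 of 18 were called higher in YPGly in WT and 2 lower, and 11 higher and 1 lower in sef1Δ cells, with medians of 0.96 and 0.87 against -0.14 and -0.11 over all genes. Of all genes 17.5% were called higher and 24.3% lower in WT, and 18.1% and 22.4% in sef1Δ cells. In WT the largest calls were the glycerol 3-phosphate dehydrogenase gene GUT2 (2.57), the lactate dehydrogenase gene DLD1 (1.60), the NADH dehydrogenase gene NDI1 (SAKL0D01056g, 1.57) and ATP3 of the ATP synthase (1.39). In sef1Δ cells they were DLD1 (2.53), GUT2 (2.50), COR1 of complex III (1.42) and NDI1 (SAKL0D01056g, 1.32). The calls in the other direction were NDE2 (-0.76 in WT and -0.82 in sef1Δ cells) and a second gene named NDI1 (SAKL0C09438g, -1.06 in WT), and these and IDH2 in the medium comparison were chosen after their values were seen. None of the 18 was called between strains in either medium, where calls were rare over all genes (0.0705% lower in YPD, 0.494% lower and 0.729% higher in YPGly). Their median strain change was 0.20 in YPD and 0.23 in YPGly, against 0.01 and 0.03 over all genes. In YPD 17 of the 18 were above 0 and in YPGly 14, as were 2228 and 2319 of all 4255 genes.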
